A study of Mus musculus with 6 samples.

Results

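The RUNX factors, their partner Cbfb and the ETO corepressors are a list of 7 mouse genes, Runx1, Runx2, Runx3, Cbfb, Cbfa2t2, Cbfa2t3 and Runx1t1, chosen by gene symbol with their difference between doxycycline and untreated cells already known. Of the 25628 symbols of the count table, 6 are on the list. Runx1t1, the ETO gene itself, was not analysed here. All 6 passed the filter on low counts that left 14158 genes. Because the choice was made with that difference in view, it is given for these genes as a description, with its error and without a p-value.

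The data were poly(A) RNA-seq counts of TgSpi1 erythroleukaemic cells, leukaemic erythroid cells of mouse bone marrow that overexpress Spi1, the gene of the ETS factor PU.1. In 3 libraries the cells had received doxycycline for 48 h, which switched on an shRNA against Spi1, and in 3 libraries they were left untreated. Both groups were kept in erythropoietin and carried the inducible shRNA. The libraries are numbered 1 to 3 in each group. The labels call them biological replicates but not separate cultures, and leave the meaning of the numbers unstated, so that p-values measure the spread between these libraries. A single cell number is given for the whole series, so that the values describe 1 such line, and no doxycycline-treated cells without the shRNA were analysed here, so that effects of the drug and of the shRNA cannot be told apart. The series concerns repression that depends on SPI1, with HDAC1 and PRC2. Spi1 stood at 84.8, 80.4 and 62.1 CPM (edgeR's scaled counts, relative to library size) with doxycycline, against 414.5, 353 and 329.6 CPM in untreated cells, and fell with a log2 fold change of -2.27 (SE 0.17, edgeR adjusted p = 0.0030).

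RUNX proteins bind DNA through the runt domain, and CBFB, which does not touch DNA, joins that domain, raises its affinity and protects the protein from breakdown. RUNX1 is needed for the emergence of blood stem cells and for platelet production, RUNX3 acts in T and NK cells, and RUNX2 in bone. In mouse myeloid cells RUNX1 activates Spi1 through an upstream enhancer. The ETO proteins bind no specific DNA sequence. They bring NCOR, SMRT and histone deacetylases to factors that do, and CBFA2T3, also called ETO2, sits in the TAL1, LMO2, LDB1 and GATA1 complex of erythroid progenitors, where it holds late erythroid genes low. RUNX1, CBFB and RUNX1T1 are known partners of leukaemic fusion genes.

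Promoter windows from RefSeq (GRCm38.p6), from 250 bases before to 50 bases after a start, were matched for the 6 genes by symbol, and Runx1, Runx3 and Cbfa2t3 each had 2 windows. They were searched on both strands for the RUNX core TGTGGT, the PU box GAGGAA and the GATA core AGATAA, which do not overlap one another in these windows. The first set shows the upstream window of Runx1 (chr16:92826025-92826324, minus strand), the window of Runx2 (chr17:44814578-44814877, minus strand) and the upstream window of Runx3 (chr4:135120395-135120694, plus strand). Capitals mark the RUNX core, read here as ACCACA on the opposite strand:
Runx1: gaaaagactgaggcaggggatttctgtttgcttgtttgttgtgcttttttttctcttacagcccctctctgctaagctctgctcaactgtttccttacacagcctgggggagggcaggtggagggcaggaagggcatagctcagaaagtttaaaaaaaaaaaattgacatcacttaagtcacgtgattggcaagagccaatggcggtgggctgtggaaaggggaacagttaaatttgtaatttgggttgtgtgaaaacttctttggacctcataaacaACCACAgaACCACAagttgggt
Runx2: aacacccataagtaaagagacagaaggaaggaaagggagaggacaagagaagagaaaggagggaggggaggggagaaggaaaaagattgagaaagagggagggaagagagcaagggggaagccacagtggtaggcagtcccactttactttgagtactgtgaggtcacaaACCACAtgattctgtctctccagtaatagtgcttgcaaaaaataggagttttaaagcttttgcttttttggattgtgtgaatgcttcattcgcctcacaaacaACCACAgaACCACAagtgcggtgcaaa
Runx3: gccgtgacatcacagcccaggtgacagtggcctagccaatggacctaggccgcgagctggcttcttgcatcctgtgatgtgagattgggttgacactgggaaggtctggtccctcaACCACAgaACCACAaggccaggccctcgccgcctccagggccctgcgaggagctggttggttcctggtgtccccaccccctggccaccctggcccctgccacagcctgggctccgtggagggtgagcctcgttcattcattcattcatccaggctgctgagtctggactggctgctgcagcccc

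The longest run of bases common to these windows was 18 bases long and holds 2 RUNX cores, which is why it is shown:
shared run: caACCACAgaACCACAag
Counting from 1 at the start, its first base was at position 27 in Runx1, 22 in Runx2 and -136 in Runx3, where a minus marks bases before the start. Among 32851 promoter windows it occurred in 4, those of Runx1, Runx2 and Runx3 and that of Gm16225, whose window overlaps the Runx3 window on the other strand. At least 2 RUNX cores were found in 1.81% of all windows and at least 1 in 16.8%. The second windows of Runx1 and Runx3 and the windows of Cbfb, Cbfa2t2 and Cbfa2t3 held no TGTGGT.

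The second set shows the promoters of the 2 genes with the largest differences described below, Cbfb (chr8:105170424-105170723, plus strand) and the upstream window of Cbfa2t3 (chr8:122699060-122699359, minus strand), with the PU box in capitals:
Cbfb: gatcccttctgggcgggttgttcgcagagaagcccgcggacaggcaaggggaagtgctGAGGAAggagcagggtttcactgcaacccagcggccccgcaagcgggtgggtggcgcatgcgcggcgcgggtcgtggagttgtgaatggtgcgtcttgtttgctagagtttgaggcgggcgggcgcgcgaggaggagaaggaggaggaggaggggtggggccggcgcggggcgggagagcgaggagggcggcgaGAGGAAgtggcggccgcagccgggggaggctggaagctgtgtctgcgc
Cbfa2t3: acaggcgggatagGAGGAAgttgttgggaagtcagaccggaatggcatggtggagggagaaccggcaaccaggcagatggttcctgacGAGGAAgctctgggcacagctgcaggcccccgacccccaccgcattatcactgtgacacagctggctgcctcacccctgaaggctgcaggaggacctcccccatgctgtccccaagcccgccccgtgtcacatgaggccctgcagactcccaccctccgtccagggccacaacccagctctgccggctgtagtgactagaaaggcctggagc
Cbfb held 2 PU boxes, with first bases at positions -192 and 3. The upstream window of Cbfa2t3 held 2 as well, at positions -237 and -162, and its other window held none. A PU box was found in 28.3% of all windows and 2 or more in 4.82%. These shares are per window, and Cbfa2t3 had 2 windows. Of the other windows of these genes, that of the downstream Runx1 promoter held 1, on the opposite strand, and no window held AGATAA, which 11.2% of all windows had. These are matches of letters and not measured binding. The 2 genes shown were picked by their difference with doxycycline, so that the matches carry no test.

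Cbfb, the partner that all 3 RUNX proteins share, was lower in every doxycycline library than in any untreated library. The gene (ENSMUSG00000031885.14, plus strand of chromosome 8, 105170674 to 105217989, GRCm38 positions from GENCODE M21) stood at 78.4, 59.5 and 38.8 CPM in doxycycline replicates 1, 2 and 3, against 163, 154 and 130.2 CPM in untreated replicates 1, 2 and 3. The groups did not overlap, and the lowest value with doxycycline and the lowest without it both belonged to number 3. Cbfb averaged 58.9 ± 19.8 CPM with doxycycline and 149 ± 17.1 CPM untreated (SD, n = 3 each). The log2 fold change was -1.34 (SE 0.26), a 2.53-fold lower level, and within the pairs of equal number it was -1.06, -1.37 and -1.75. In bulk RNA, fewer cells that contain a transcript and less of it per cell cannot be told apart.

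Of the 3 RUNX genes, Runx1 and Runx3 were well measured and Runx2 was near the smallest value of the table. Their log2 fold changes were not tested against one another. Without the replicate number as a block they lay within their errors, and with it that of Runx3 did not (-0.40, SE 0.11). Runx1 (ENSMUSG00000022952.17, chromosome 16 from 92601466 to 92826149 on the minus strand) was nearly equal in the 2 libraries of each number. Its values were 109, 129 and 79.2 CPM with doxycycline, against 105, 127 and 77.9 CPM untreated. The pair differences were 0.06, 0.02 and 0.02 on the log2 scale and the fitted log2 fold change was 0.03 (SE 0.24, or 0.083 with the replicate number as a block). The libraries of number 2 were highest and those of number 3 lowest, so that the numbers lay further apart than the 2 libraries of any pair. Gm26626, antisense to its exons, had counts of 1 to 3, where 1 is the smallest value of the table, so that its detection is uncertain.

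Runx3 (ENSMUSG00000070691.10, chromosome 4 from 135120652 to 135177990 on the plus strand) stood at 31.1, 61.0 and 23.8 CPM with doxycycline, against 40.1, 67.9 and 38.2 CPM untreated. The doxycycline library was the lower of each pair, but the groups overlapped, since both libraries of number 2 were above all others. The log2 fold change was -0.33 (SE 0.39), with pair values of -0.37, -0.15 and -0.68, and -0.40 (SE 0.11) with the block. Without untreated replicate 2 it was -0.02 and without doxycycline replicate 2 it was -0.83.

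Runx2 (ENSMUSG00000039153.16, chromosome 17 from 44495987 to 44814797 on the minus strand), the bone factor, was close to the smallest value of the table, which is 1. Its counts were 9, 14 and 12 with doxycycline, against 9, 18 and 6 untreated, or between 0.0987 and 0.144 CPM and between 0.0606 and 0.229 CPM. The pair differences had different signs (-0.05, -0.67 and 0.99), and a difference was not detectable at this depth. Runx2os1, which lies antisense to it and overlaps its exons, had counts of 1 or 2, at or next to that smallest value. The kit was unstranded, so that reads of a gene and of its antisense partner cannot be told apart.

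Of the ETO genes, Cbfa2t3 was lower with doxycycline, while the log2 fold change of Cbfa2t2 was smaller than its SE without the block. Cbfa2t3 (ENSMUSG00000006362.16, chromosome 8 from 122625141 to 122699109 on the minus strand) stood at 55.1, 108 and 73.6 CPM with doxycycline, against 100.3, 158 and 157 CPM untreated. Each pair showed the lower value with doxycycline, and the groups overlapped only through number 2 with doxycycline and number 1 untreated. Cbfa2t3 averaged 79.0 ± 27.0 CPM with doxycycline and 139 ± 33.1 CPM untreated (SD, n = 3 each), a log2 fold change of -0.81 (SE 0.29) with pair values of -0.86, -0.55 and -1.09. With the block it was -0.83 (SE 0.11). Gm10612, antisense to its exons, had 51, 43 and 51 counts with doxycycline, against 22, 11 and 20 untreated, and thus a difference in the other direction, with 5024 counts or more for Cbfa2t3 itself.

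Cbfa2t2, the gene of the related corepressor MTGR1 (ENSMUSG00000038533.15, chromosome 2 from 154436481 to 154539356 on the plus strand), stood at 71.5, 77.6 and 44.3 CPM with doxycycline, against 64.8, 67.8 and 43.7 CPM untreated. The values of the groups overlapped and number 3 was lowest in both. Its log2 fold change was 0.13 (SE 0.26), with pair values of 0.14, 0.20 and 0.02. The pseudogene Cbfa2t2-ps1, a copy that may share reads with it, stood at 2.69 ± 0.693 CPM with doxycycline and 2.62 ± 0.398 CPM untreated (SD, n = 3 each).

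**Figure D1:**
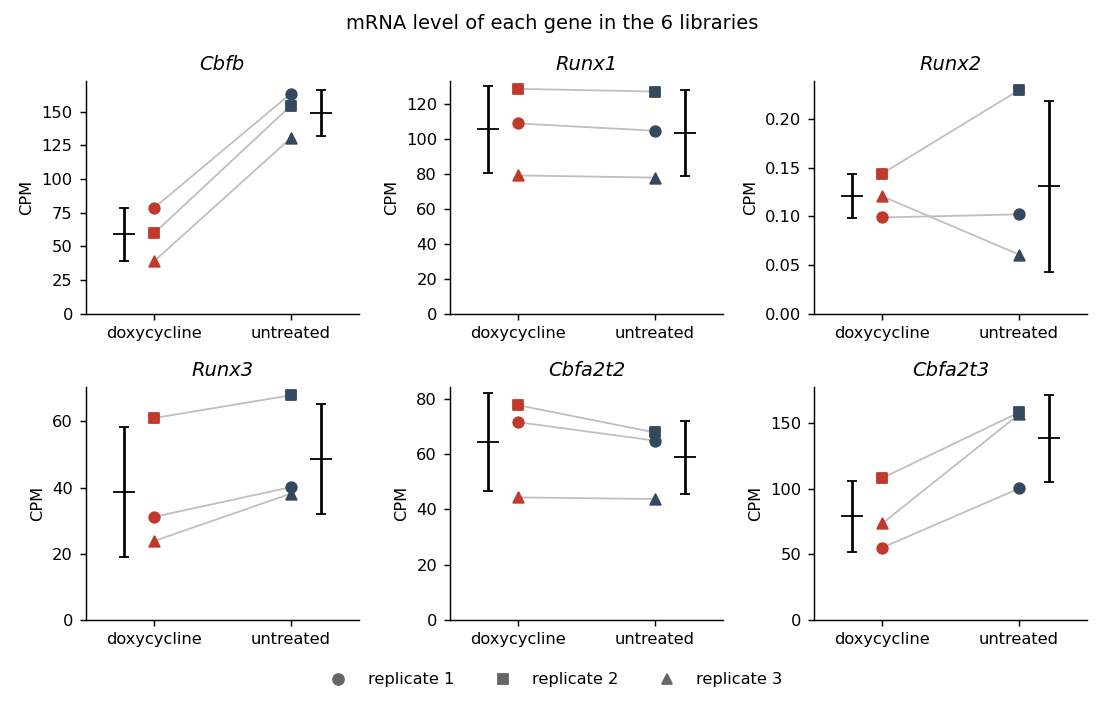
CPM of the 6 genes in each library, doxycycline left and untreated right, with a marker shape for each replicate number, grey lines between equal numbers, and the mean ± SD beside each group (n = 3 each). The Cbfb values with doxycycline, 38.8 to 78.4 CPM, all lie below the untreated ones, 130.2 to 163 CPM, while the Runx1 lines are nearly flat.

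Read against all 14158 genes tested, the counts are a description of genes chosen on this contrast. Cbfb was the 1 of 6 that was called lower by edgeR at an adjusted p under 0.05, as were 2.18% of all genes, and the 1 of 6 whose groups did not overlap with doxycycline lower, as for 11.7% of all genes. DESeq2 gave all 6 an adjusted p and called Cbfb alone lower and none higher, against 4.19% lower and 1.94% higher of the 15181 genes with an adjusted p. With edgeR none was called higher, where 0.417% of all genes were, nor lay wholly above the untreated values, where 8.88% of all genes did. At an unadjusted p under 0.05 none was higher, as were 5.86% of all genes, and 2 were lower, Cbfa2t3 and Cbfb, as were 9.56%. Cbfb was not called once any 1 of the 6 libraries was left out, with log2 fold changes between -1.60 and -1.10. With the replicate block, 3 of 6 were called lower, Cbfb, Cbfa2t3 and Runx3 (15.6% of all genes), and none was called higher (10.3% of all genes). At an unadjusted p under 0.05 in that fit none was higher either, against 17.1% of all genes. The same 3 were lower in all 3 pairs, as were 29.4% of all genes, and Runx1 and Cbfa2t2 were higher in all 3, as were 28.0%.

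**Figure D2:**
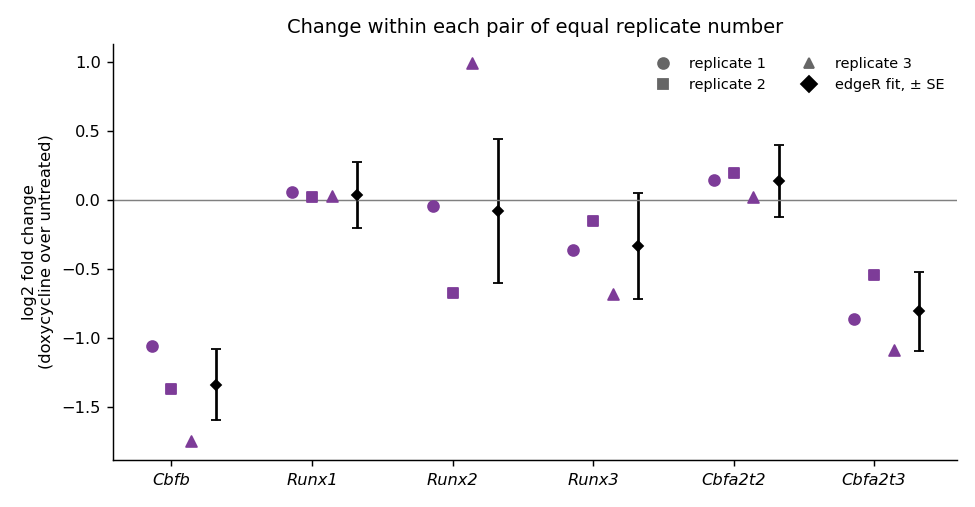
Log2 fold change, doxycycline over untreated, of each gene within each pair of equal replicate number (purple) and from the edgeR fit without the block (black, ± SE). Cbfb lies at -1.06 or lower in every pair, Runx1 within 0.06 of 0, and Runx2, with 18 counts or fewer, on both sides of 0.

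Per length, Cbfb was the most abundant of the 6 in every library. Dividing CPM by the kilobases covered by the annotated exons of GENCODE M21 gave 16.9 ± 5.70 CPM per kb for Cbfb with doxycycline and 42.9 ± 4.90 CPM per kb untreated. Cbfa2t3 followed with 9.44 ± 3.22 and 16.5 ± 3.95 CPM per kb (doxycycline and untreated). Runx1 had 8.79 ± 2.08 and 8.59 ± 2.05, Runx3 7.73 ± 3.94 and 9.74 ± 3.33, and Cbfa2t2 7.45 ± 2.05 and 6.79 ± 1.52 CPM per kb in the same order (SD, n = 3 each). The SD holds the differences between the replicate numbers, which the genes of a library share, so the order was also read within libraries. Cbfa2t3 was above Runx3 in 6 of 6 libraries, and above Runx1 and above Cbfa2t2 in all but doxycycline replicate 1. Runx1 was above Cbfa2t2 in 6 of 6. Runx1 was above Runx3 in 3 of 6 and Runx3 above Cbfa2t2 in 4 of 6, so that neither of these pairs had a fixed order. Runx2 was at 0.0137 ± 0.00255 CPM per kb with doxycycline and 0.0148 ± 0.00996 CPM per kb untreated. These lengths count every annotated exon, so that unused exons lower a value.

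The balance between the genes is given as ratios of these per-length levels. Cbfb over the sum of the RUNX genes was 1.47, 0.746 and 0.981 in doxycycline replicates 1, 2 and 3, against 2.80, 1.83 and 2.65 in the untreated ones. These groups did not overlap, and in 2 doxycycline libraries the Cbfb level was below that of the RUNX genes together. Whether a ratio lies above or below 1 depends on the exon lengths used, which count unused exons too. Cbfa2t3 over Cbfa2t2 was 0.797, 1.44 and 1.72 with doxycycline, against 1.60, 2.41 and 3.71 untreated, lower with doxycycline in each pair but overlapping between the groups. Runx1 made up 59.2%, 46.7% and 58.0% of the summed RUNX level with doxycycline, against 52.0%, 43.8% and 45.9% untreated, the rest being almost all Runx3. The ratios concern mRNA and use the contrast on which the genes were chosen, so that they carry no test.

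**Figure D3:**
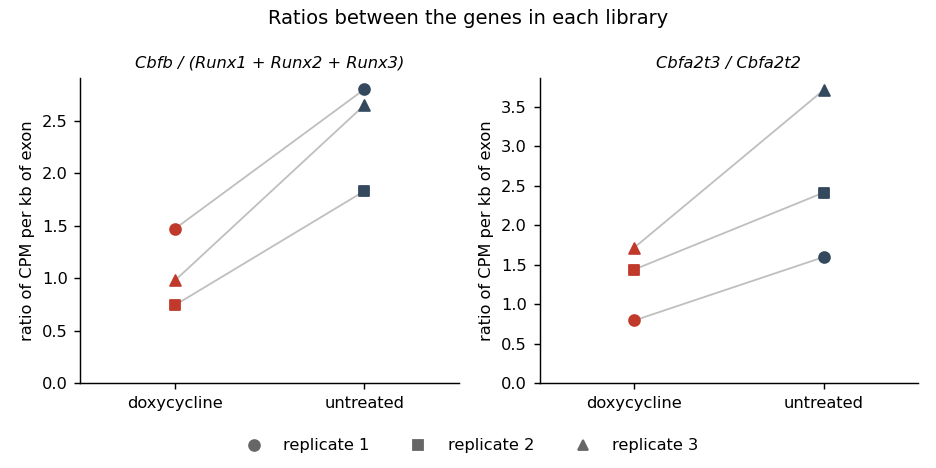
Ratios of CPM per kb of exon in each library, doxycycline left and untreated right, with a marker shape for each replicate number and grey lines between equal numbers. Cbfb over summed RUNX lies at 1.47 or lower with doxycycline and at 1.83 or higher untreated, and both ratios are lower with doxycycline in each pair.

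The difference between replicate numbers, which was not the contrast the genes were chosen on, was tested in the fit with group and number. Of the 6 genes, 5 differed between the numbers at an adjusted p under 0.05, as did 43.3% of all genes tested. In level, 2.41% of all genes lay below Runx2, but between 64.0% and 83.2% below each of the 5. The share among genes of like level was not worked out. Runx3 averaged 35.6, 64.5 and 31.0 CPM over both libraries of numbers 1, 2 and 3 (edgeR adjusted p = 5.8e-04). Runx1 averaged 107, 128 and 78.6 CPM (edgeR adjusted p = 0.0017), and Cbfa2t2 68.2, 72.7 and 44.0 CPM (edgeR adjusted p = 0.0016). In these genes number 2 was highest and number 3 lowest in both groups.

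Cbfa2t3 had another order, with 77.7, 133 and 115 CPM in numbers 1, 2 and 3 (edgeR adjusted p = 0.0031), lowest in number 1 in both groups. Cbfb had 121, 107 and 84.5 CPM (edgeR adjusted p = 0.016), highest in number 1 in both groups. Runx2, with 0.100, 0.187 and 0.0905 CPM, did not pass (edgeR adjusted p = 0.19). For the 5 genes the adjusted p stayed between 8.2e-08 and 0.017 with RLE normalization, no filter, 1 taken off each value and DESeq2. The test rests on 2 libraries per number, 1 of each group.

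Genes whose levels followed these genes most closely over the 6 libraries were looked up among 9300 other genes with a mean of at least 5 CPM, by Pearson r of log2 CPM, which takes in both the group and the number. For Cbfb these were Tnfaip8 (r = 0.996), Rgs18 (0.996) and Pros1 (0.995), and for Cbfa2t3 Parp14 (0.996), Gdpgp1 (0.994) and Git2 (0.994). Runx1 was followed by Tm9sf4 (0.997), Xpo5 (0.996) and Zfp113 (0.996), Runx3 by Tbc1d5 (0.995), Trim39 (0.995) and Smarce1 (0.994), and Cbfa2t2 by Rbmx2 (0.999), Ifih1 (0.995) and Rc3h2 (0.994). With only 6 libraries between 109 and 190 genes had an r over 0.95 with each member, so that these names describe the libraries and carry no test.

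Around the ETO corepressors, none of the TAL1 complex partners was called by edgeR without the block. Without the block, edgeR called 0.417% of all genes higher and 2.18% lower, and 5.86% and 9.56% at an unadjusted p under 0.05. DESeq2 called 1.94% higher and 4.19% lower, and edgeR with the block 10.3% and 15.6%. These shares stand beside the list and marker counts below. Of 13 tested genes none was called by edgeR, 1 had an unadjusted p under 0.05 and 1, Tal1, was called by DESeq2 as higher. Their median log2 fold change was 0.07, against 0.0065 over all genes. Lmo2, the bridging LIM protein, stood at 347 ± 41.9 CPM with doxycycline and 382 ± 57.6 CPM untreated (log2 fold change -0.14, SE 0.16, edgeR adjusted p = 0.78). Tal1, the bHLH factor of the complex, stood at 424 ± 15.9 CPM with doxycycline and 295 ± 15.4 CPM untreated (SD, n = 3 each), without overlap of the groups (0.52, SE 0.11, edgeR adjusted p = 0.068, or 0.0021 in the blocked fit). With the block Tal1, Tcf12 and Zfpm1 rose and, picked with the last 2 of these after the values were seen, Lyl1, a relative of Tal1, fell (-0.67, edgeR adjusted p = 7.0e-04).

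The corepressors that ETO proteins bring in showed no call without the block. Of 12 tested genes of the NCOR, SIN3 and deacetylase list none was called by edgeR, where 0.417% of all genes were higher and 2.18% lower. At such shares, no call among 12 genes says little of the list. None had an unadjusted p under 0.05 and none was called by DESeq2, and the median log2 fold change was -0.04. Tbl1x, a subunit of the NCOR complex, stood at 215 ± 71.9 CPM with doxycycline and 165 ± 56.5 CPM untreated (0.38, SE 0.33, edgeR adjusted p = 0.68, or 0.0070 in the blocked fit). Hdac2 stood at 162 ± 16.8 CPM with doxycycline and 172 ± 11.0 CPM untreated (SD, n = 3 each; -0.09, SE 0.13, edgeR adjusted p = 0.84). With the block Tbl1x rose, as did Sin3b, picked after its value was seen.

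Among 17 tested RUNX cofactors and modifiers 1 fell and none rose, with a median log2 fold change of -0.21. DESeq2 called the same gene and none higher, and at an unadjusted p under 0.05 none was higher and 2 were lower. The faller was Ets1, an ETS factor that binds DNA together with RUNX1, at 11.6 ± 1.18 CPM with doxycycline and 31.8 ± 4.37 CPM untreated (SD, n = 3 each; log2 fold change -1.46, SE 0.17, edgeR adjusted p = 0.014). With the block 5 fell and 2 rose, against 15.6% and 10.3% of all genes. Those with the block, picked after their values were seen, were the fallers Ets1, Elf4, Tle4, a Groucho corepressor (-0.55), Cdk6 (-0.43) and Pim1 (-0.42), and the risers Tle3, also a Groucho corepressor (0.48), and Carm1 (0.30).

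Of 25 blood genes known as RUNX targets, a list that does not separate activated from repressed genes, 14 were tested. Of these 1 fell and none rose, with a median log2 fold change, Spi1 included, of -0.44. The faller was Spi1, the target of the shRNA, so that this call says nothing of the list. Of the other 13, none was called by edgeR, 4 were lower and none higher at an unadjusted p under 0.05, and DESeq2 called 3 lower and none higher. With the block 2 of the 14 were higher at an unadjusted p under 0.05 (17.1% of all genes). After adjustment none of these 13 rose (10.3% of all genes) and 6 fell (15.6% of all genes). Picked after their values were seen, these included Itgal, the integrin alpha L chain (4.14 ± 1.74 CPM with doxycycline and 17.1 ± 8.16 CPM untreated; SD, n = 3 each), Itga2b, the platelet integrin alpha IIb chain (8.21 ± 3.44 and 22.8 ± 8.05 CPM, in the same order), and Nfe2, a factor of platelet formation (92.0 ± 4.68 and 122 ± 12.1 CPM, in the same order). The early myeloid targets Mpo and Elane were at 0.0711 CPM or lower on average in both groups. None of the 10 skeletal genes known as RUNX2 targets passed the filter, and the 6 that were analysed summed to at most 0.175 CPM with doxycycline and 0.370 CPM untreated.

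**Figure D4:**
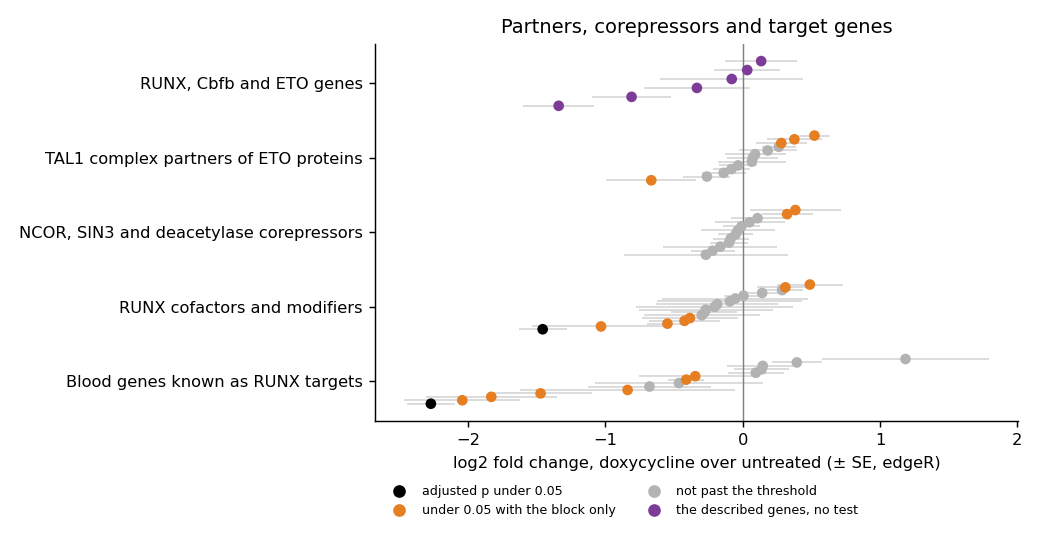
Log2 fold change, doxycycline over untreated, with its SE, of the 6 RUNX, Cbfb and ETO genes (purple, no test) and of the tested genes of 4 lists, coloured by whether the adjusted p was under 0.05 without the block (black), with it only (orange) or in neither (grey). The 2 black points are Ets1 and Spi1.

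Markers of the cells were read beside these values. The 9 erythroid markers were all tested and summed to between 6652 and 8968 CPM with doxycycline and between 4849 and 5843 CPM untreated. Tfrc and Car2 made up most of these sums. Tfrc averaged 3099 CPM with doxycycline and 2101 CPM untreated, and Car2, a red cell carbonic anhydrase, 3034 and 1654 CPM. The beta-globin gene Hbb-bs averaged 776 and 1010 CPM, in the same order. Without the block Car2 rose. With the block 7 of the 9 rose and 1, Hbb-bs, fell, against 10.3% and 15.6% of all genes. The 6 megakaryocyte markers, a lineage in which RUNX1 and CBFA2T3 act, summed to between 40.0 and 153 CPM with doxycycline and between 70.7 and 297 CPM untreated, of which Pf4 made up most. Of 5 tested, none was called by edgeR without the block, 1 was higher and 3 lower at an unadjusted p under 0.05, and DESeq2 called 1 higher and 2 lower. With the block 1 rose and 4 fell, against 10.3% and 15.6% of all genes. The part of these 2 marker sets in the lower Cbfb and Cbfa2t3 levels was not tested. Markers of other cells were low. The 5 analysed T and NK cell markers summed to at most 0.914 CPM with doxycycline and 0.510 CPM untreated. The 1 of these that was tested, Cd3g, rose with the block (10.3% of all genes). The 6 monocyte and neutrophil markers summed to between 0.977 and 1.71 CPM with doxycycline and between 2.70 and 3.19 CPM untreated. Of 2 tested, none was called by edgeR without the block. Cd68, picked after its value was seen, was called lower by DESeq2 (4.19% of all genes) and with the block (15.6%). The 5 B cell markers summed to at most 0.442 CPM with doxycycline and 1.52 CPM untreated, and the 4 analysed stromal and osteoblast markers, of which Dcn made up most where the sum was highest, to at most 1.69 CPM with doxycycline and 1.03 CPM untreated.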

How the data were processed

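Poly(A) libraries were made with Illumina TruSeq RNA v2, which does not mark the strand, per the labels' protocols. Raw counts of reads per gene symbol were deposited by the authors as 1 table. STAR, DESeq2, bcl2fastq 2.17.1.14 and the builds GRCm38 and mm10 are named in the submitters' processing notes. How reads were counted, and with which annotation, is not given in the sources used here. Total counts were between 78926663 and 101276319 per library, and the smallest value in every library was 1.

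Counts were tested as deposited with edgeR 4.0.16 (limma 3.58.1, R 4.3.3): TMM factors, filterByExpr, the two-sided quasi-likelihood F test with group as the term, and Benjamini-Hochberg adjustment over 14158 genes, at 0.05. CPM use TMM-scaled library sizes. The SE of a log2 fold change is its absolute value over the root of F. The replicate number was tested in a fit with group and number. Equal numbers were taken as paired, since their deviations from the group means correlated across genes (0.75, 0.72 and 0.71). The labels do not name the pairing. Alternatives were the replicate block, RLE normalization, no filter, 1 taken off each value, DESeq2 1.42.0 and leaving out each library.

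The members and the gene lists, 5 lists and 6 sets of cell markers drawn up from general knowledge, were chosen with earlier results of these data known. Named were all members, Spi1, up to 3 called genes per list with the smallest adjusted p or otherwise the 2 most abundant, and the 3 closest genes per member of at least 5 CPM. Scripts were tested on simulated data.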

Additional observations from a re-analysis of the deposited data

How the results depend on the processing

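Without the replicate block 59 genes were higher and 308 lower with doxycycline. With the replicate block these counts were 1452 and 2206, and with DESeq2 294 and 636. Leaving out 1 library gave between 0 and 26 higher genes and between 35 and 242 lower genes. The 0 was by edgeR without untreated replicate 2, where 444 genes were higher at an unadjusted p under 0.05. Every left-out library moved the higher count by over 1.5 times (3, 14 and 20 when doxycycline replicate 1, 2 or 3 was left out, and 1, 0 and 26 for untreated replicate 1, 2 or 3). The lower count moved likewise (35, 98 and 173 for doxycycline replicate 1, 2 or 3, and 48 and 43 for untreated replicate 1 or 2), except for untreated replicate 3, with 242. The cause was not tested. RLE normalization, no filter and 1 taken off each value kept both counts within 1.5 times, and together with DESeq2 they kept the count of genes that differ between the numbers between 5809 and 6697, against 6127. The replicate block turned Runx3 and Cbfa2t3 into calls and removed none among the RUNX, Cbfb and ETO genes. With it the share of all genes called lower went from 2.18% to 15.6%, so that these added calls say little of the members. Under every alternative run the log2 fold changes of the 6 genes moved by less than the SD between replicates. They stayed below 0 for Cbfb (-1.60 to -1.10), Cbfa2t3 (-1.10 to -0.61) and Runx3 (-0.83 to -0.02). They lay on both sides of 0 for Runx1 (-0.14 to 0.21), Cbfa2t2 (-0.04 to 0.36) and Runx2 (-0.44 to 0.57). Depth limits Runx2, at 18 counts or fewer, and none of the other 5, at 2372 counts or more.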
